A study of Mus musculus with 6 samples.

Results

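The 38 genes examined here encode proteins that copy the genome and divide the cell. They were chosen by name for these roles, out of the 54532 genes in the count table. No measured value entered the rule, but earlier results of these data were known when the members were chosen. RNA-seq was performed on cultured mouse cells labelled as dendritic cells, 3 libraries labelled control and 3 from cells given DB2313. Both groups were grown in 1640 medium with fetal bovine serum and antibiotics. DB2313 is a small molecule that the study used as an inhibitor of Spi1, also called PU.1, a transcription factor of myeloid cells. The labels gave no strain, genotype, age, dose or duration, and the study itself wrote of macrophages where the labels have dendritic cells. Nothing in the labels says that the 3 libraries of a group came from separate cultures or animals, so the p-values below measure the spread between libraries, which may be technical.

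Cells that divide prepare each origin of replication in G1 by loading the MCM helicase, a step called licensing, and fire the origins in S phase, when the sliding clamp Pcna and a supply of deoxynucleotides are needed. Mitotic cyclins, Cdk1 and the Polo-like and Aurora kinases then drive chromosome condensation, spindle assembly and cytokinesis, while the spindle checkpoint delays anaphase until the kinetochores are attached. Many of these genes are transcribed periodically. E2F factors act mainly on the genes of G1 and S phase through E2F sites, and the MuvB complex with B-Myb and Foxm1 acts on the genes of G2 and mitosis, often through a CHR element beside CCAAT boxes. Dendritic cells and macrophages grown from bone marrow arise from progenitors that divide in culture, and mature cells of these types divide little.

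The promoters of 4 members are shown because they hold the elements of both classes in members that did and did not pass the test below. The sequences are those of RefSeq, assembly GRCm38.p6, from 250 bases before to 50 bases after the annotated start, 5′ to 3′ on the strand of the gene. Capitals mark every match to 4 motifs searched on both strands. An E2F core was the form TTCCCGC, likewise the form TTGGCGC, then the form TTCGCGC, and last the form TTGCCGC. A CHR was TTTGAA or else the palindrome TTCGAA. The CCAAT box was matched by CCAAT itself, and the PU box, the core bound by Spi1, by GAGGAA. Positions are counted from 0 at the first transcribed base.
Plk1: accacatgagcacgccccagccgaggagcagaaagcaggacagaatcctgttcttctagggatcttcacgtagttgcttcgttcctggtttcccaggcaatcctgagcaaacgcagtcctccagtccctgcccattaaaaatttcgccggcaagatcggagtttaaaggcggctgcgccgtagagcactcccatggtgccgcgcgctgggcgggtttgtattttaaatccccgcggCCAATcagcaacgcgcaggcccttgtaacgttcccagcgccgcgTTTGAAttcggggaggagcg
Kif23: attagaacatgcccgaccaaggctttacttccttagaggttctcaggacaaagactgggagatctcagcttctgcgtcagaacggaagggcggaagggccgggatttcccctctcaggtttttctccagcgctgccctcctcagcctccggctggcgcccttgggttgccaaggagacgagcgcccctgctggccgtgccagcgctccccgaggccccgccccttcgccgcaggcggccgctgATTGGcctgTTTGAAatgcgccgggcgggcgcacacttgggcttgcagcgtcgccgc
Ccnb2: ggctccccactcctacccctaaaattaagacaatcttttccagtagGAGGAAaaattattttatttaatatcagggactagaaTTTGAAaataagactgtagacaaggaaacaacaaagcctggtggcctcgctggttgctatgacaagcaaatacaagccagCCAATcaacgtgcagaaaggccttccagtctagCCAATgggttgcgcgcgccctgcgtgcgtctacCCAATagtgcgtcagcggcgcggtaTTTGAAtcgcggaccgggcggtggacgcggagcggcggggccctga
Mcm7: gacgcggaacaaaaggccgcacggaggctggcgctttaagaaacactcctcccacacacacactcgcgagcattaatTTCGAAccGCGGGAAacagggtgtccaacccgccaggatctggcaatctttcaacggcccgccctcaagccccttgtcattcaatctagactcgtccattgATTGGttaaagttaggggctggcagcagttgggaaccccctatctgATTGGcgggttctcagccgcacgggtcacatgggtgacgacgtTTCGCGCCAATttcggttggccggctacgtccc

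The Plk1 window (chr7:122159185-122159484, plus strand) held a CCAAT box at position -14 and a CHR at position 30. The Kif23 window (chr9:61946750-61947049, minus strand) held the same pair at -7 and 2, and the Ccnb2 window (chr9:70421505-70421804, minus strand) held a CHR at 4 below CCAAT boxes at -21, -54 and -87, besides a distant CHR at -167 and a PU box at -204. The Mcm7 window (chr5:138171834-138172133, minus strand) held E2F cores at -165, 17 and 20, CCAAT boxes at -72, -26 and 23, and a CHR at -173. The E2F cores at 17 and 20 overlap each other and the CCAAT box at 23. The PU box was found in Ccnb2 and in none of the other 3 windows. Mcm7 has a second window in the table, which is not shown. Kif20a, Tpx2, Foxm1, Aurkb, Ccna2, Ccne2, Gins2 and Mcm4 had no entry in the promoter table.

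Over the 31 windows of the 30 members with an entry, 24 windows (77.4%) held a CCAAT box, against 37.4% of all 32851 promoter windows of the same length. A CHR was found in 15 windows (48.4%), against 19.2% of all windows, and an E2F core in 12 (38.7%), against 9.57%. The PU box was found in 10 (32.3%), close to the 28.3% of all windows. Over the windows of tested genes alone, the shares were 37.5% for the CCAAT box, 14.4% for the CHR, 16% for the E2F core and 27.4% for the PU box. From 100 bases before to 50 after the start, 19.4% of the members' windows held an E2F core. The share was 9.34% for tested genes and 28.1% for the other cell cycle genes described below. In the same order, the shares were 45.2%, 5.66% and 26.7% for the CHR. They were 67.7%, 24.9% and 45.6% for the CCAAT box, and 19.4%, 14.7% and 12% for the PU box. Thus the members carried the letters of the cell cycle elements more often than promoters at large. Over the whole window they carried those of the PU box about as often. A match of letters is not a bound site.

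None of the 38 members was removed by the low-count filter, and all were among the 14174 genes tested with edgeR's quasi-likelihood test. Total counts were between 16146743 and 19764677 per library, and the members took between 0.277% and 0.287% of the counts in the control libraries and between 0.295% and 0.315% in the treated ones. The DB2313 libraries were less alike than the control libraries. The SD over genes of the log2 CPM difference (read counts scaled for library size) was 0.436 to 0.450 between control libraries and 0.451 to 0.531 between DB2313 libraries, with replicates 1 and 3 the farthest apart. Counts of members called without each of these are given with the result.

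At an adjusted p under 0.05 (edgeR, Benjamini-Hochberg over all genes tested), Mcm7 and Tpx2 were higher with DB2313, and Kif20a and Plk1 were lower. This was 2 of 38 members (5.26%) in each direction, beside the 4.66% of all tested genes that were higher and the 5.94% that were lower. The count of calls is therefore near that of genes at large and is no result about the members. The 2 lower members were the more changed, with a log2 fold change of -0.80 for Kif20a and -0.40 for Plk1, whereas the other 36 lay between -0.18 and 0.28 on that scale. Without DB2313 replicate 1, 5 members were higher (Mcm7, Tpx2, Kif23, Rrm1 and Top2a) and 2 lower. Over all genes then tested, 789 of 14558 were higher and 922 lower. Without DB2313 replicate 3, 3 members were higher (Mcm7, Tpx2 and Birc5) and 2 lower, beside 1097 and 1311 of all 14527 genes. No member was called higher when DB2313 replicate 2 or control replicate 1, 2 or 3 was left out. Over all tested genes, 328, 361, 360 and 383 were then higher, against 661 with all libraries. The calls of genes at large rose and fell with the same omissions, but not in the same measure. The larger rise over all genes came without DB2313 replicate 3. For the members it came without DB2313 replicate 1. The cause was not tested.

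The differences were mostly small, and over all 38 members, with the called ones included, they were mostly positive. The log2 fold change was positive for 28 of 38 members (73.7%, against 50.1% of all tested genes), and its median was 0.098, against 8.2e-04 over all tested genes. All 3 DB2313 libraries lay above all 3 control libraries for 11 members (28.9%, against 12.9% of all tested genes), namely Pcna, Tyms, Rrm2, Cdc6, Mcm7, Aurka, Aurkb, Birc5, Top2a, Tpx2 and Kif23. All 3 lay below for Kif20a, Plk1 and Ccnb2 (7.89%, against 14.5%). Of the 38 members, 30 differed by less than 0.2 on the log2 scale. The genes are transcribed together, so they are not independent measurements, and no test was made over the list.

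**Figure D1:**
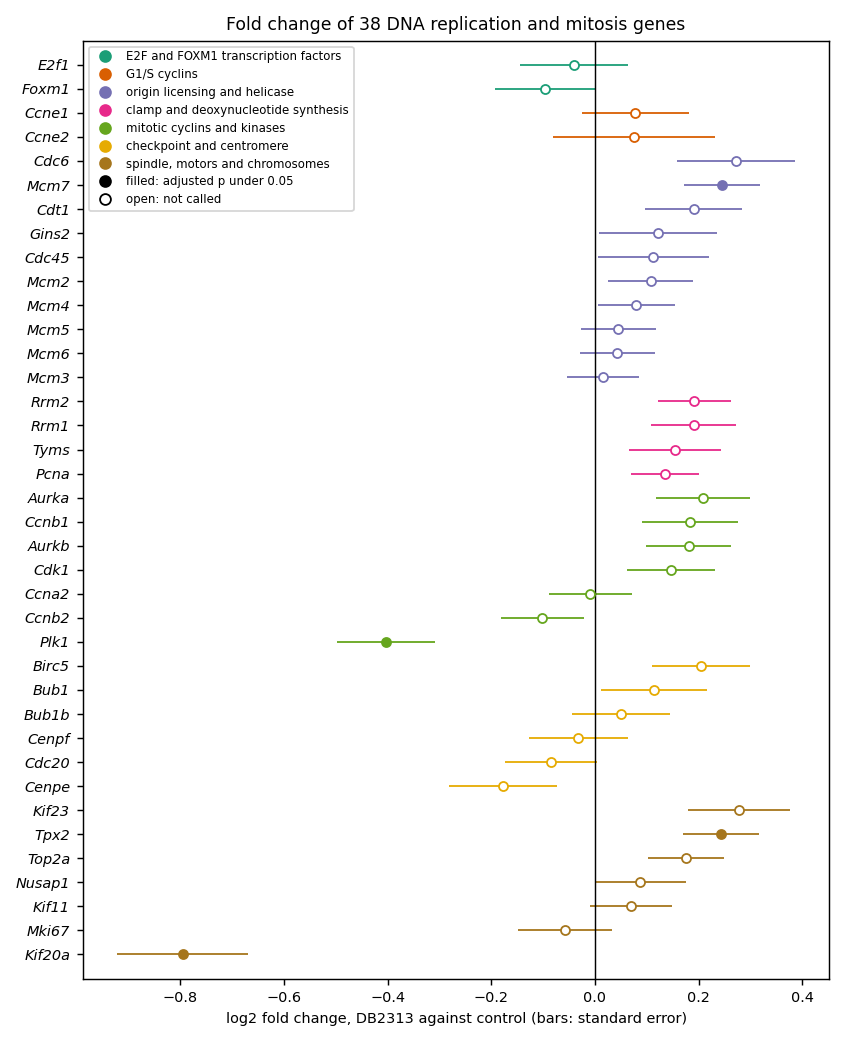
Log2 fold change of the 38 members, DB2313 against control, with its standard error, grouped by role and coloured by role (x axis, log2 scale). Filled points passed an adjusted p of 0.05 and open points did not. Kif20a and Plk1 stand far to the left, and the 16 replication genes all lie to the right of 0.

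The transcription factors of the programme did not pass the test. E2f1, an activator of S phase genes, was at 43.0, 46.9 and 37.95 CPM in the control libraries and at 46.6, 39.8 and 37.98 in the DB2313 libraries, so the groups overlapped. Its log2 fold change was -0.04 ± 0.10 (SE, adjusted p = 0.865, edgeR). Foxm1, an activator of mitotic genes, was at 45.7, 43.0 and 43.6 CPM in control and at 44.1, 35.8 and 44.0 with DB2313. Only DB2313 replicate 2 was clearly lower, and the log2 fold change was -0.10 ± 0.10 (adjusted p = 0.616, edgeR). Without that library it was 0.00065.

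The G1/S cyclins bind Cdk2 and start S phase. Ccne1 was at 22.9, 21.95 and 23.7 CPM in control and at 25.6, 22.3 and 24.5 with DB2313. Ccne2 had the highest coefficient of variation of all members between control libraries, 21.99%, at 12.1, 15.6 and 10.2 CPM, and was at 12.6, 13.7 and 13.5 with DB2313, inside the control range. The log2 fold changes were 0.08 for each, with adjusted p-values (edgeR) of 0.717 and 0.827. Ccne2 lies opposite to Ints8 over 5622 bp of gene span, introns included. No stretch of 500 bp or more was found in transcripts of both. If strand was not used, any uncertain reads would lie in shorter shared stretches.

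Each of the 10 genes of origin licensing and the helicase had a positive log2 fold change, with a median of 0.11 and a range of 0.02 to 0.27, and 1 of them, Mcm7, passed the test. Mcm7, a subunit of the MCM2 to 7 helicase at chr5:138164583-138172422 on the minus strand, was at 109, 115 and 119 CPM in the control libraries and at 137, 141 and 128 with DB2313. All 3 treated libraries were above all 3 controls, and the log2 fold change was 0.25 ± 0.07 (SE, n = 3 per group, adjusted p = 0.0437, edgeR). The change was modest, and the call was lost on leaving out control replicate 1, 2 or 3 or DB2313 replicate 2, when the adjusted p was 0.189, 0.138, 0.0915 and 0.232. It was 0.114 in the fit blocked on replicate number. Mcm7 holds 3 microRNA genes and overlaps Ap4m1 and Cops6 on the other strand, and it has a near-identical copy, Gm5487, with at most 8 counts in any library.

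The other MCM subunits did not pass the test. Mcm6, the licensing gene with the highest CPM, was at 163, 170 and 163 CPM in control and at 181, 159 and 170 with DB2313, with overlapping groups and a log2 fold change of 0.04 ± 0.07 (adjusted p = 0.780, edgeR). Mcm3 was at 138, 150 and 151 CPM in control and at 148, 148 and 147 with DB2313, all within the control range (0.02 ± 0.07, adjusted p = 0.931, edgeR). Log2 fold changes were 0.11 for Mcm2, 0.08 for Mcm4 and 0.05 for Mcm5. The 6 subunits work as 1 ring, and 5 of them differed by no more than 0.11.

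Cdc6 and Cdt1 load the ring onto the origin. Cdc6 had the largest log2 fold change of the group, 0.27 ± 0.11, and its 3 DB2313 libraries (18.7, 18.9 and 20.97 CPM) were all above the controls (15.4, 16.1 and 16.9 CPM), but it did not pass the test (adjusted p = 0.156, edgeR). Cdt1 was at 0.19 (adjusted p = 0.243, edgeR). Cdc45 and Gins2, which join the ring to form the active helicase, had log2 fold changes of 0.11 and 0.12. Gins2 is covered over 2758 bp by Gse1, on the other strand, with up to 1273 counts in a library, so its reads are uncertain.

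The clamp and the genes of deoxynucleotide synthesis all had a positive log2 fold change, with a median of 0.17. Pcna, the sliding clamp of the replicative polymerases, was at 171, 171 and 174 CPM in control and at 192, 187 and 189 with DB2313. The groups were fully apart although the log2 fold change was only 0.13 ± 0.07 (adjusted p = 0.230, edgeR). Rrm1, the large subunit of ribonucleotide reductase, was at 146, 154 and 133 CPM in control and at 152, 163 and 179 with DB2313, with some overlap (0.19 ± 0.08, adjusted p = 0.169, edgeR). Its small subunit Rrm2 was at 94.1, 94.7 and 90.4 CPM in control and at 106, 106 and 107 with DB2313, which is no overlap, and had a log2 fold change of 0.19 ± 0.07 (adjusted p = 0.103, edgeR). Tyms, which makes thymidylate, was at 0.15 (adjusted p = 0.324, edgeR). Near-identical copies are annotated for Pcna (Pcna-ps2, at most 30 counts) and Tyms (Tyms-ps, 0 counts). Thus none of these 4 genes passed the test.

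Of the 7 mitotic cyclins and kinases, 1 was called lower, and 4 had a positive log2 fold change. Plk1, the Polo-like kinase of mitotic entry, spindle assembly and cytokinesis, lies at chr7:122159439-122169873 on the plus strand. It was at 47.6, 51.1 and 52.4 CPM in the control libraries and at 42.3, 34.4 and 37.6 with DB2313. Every treated library was below every control, and the log2 fold change was -0.40 ± 0.09 (SE, n = 3 per group, adjusted p = 0.0123, edgeR). The adjusted p was 0.0658 without control replicate 2, 0.0696 without control replicate 3 and 0.10 without DB2313 replicate 2, and the log2 fold change then lay between -0.39 and -0.33. An unnamed gene model, Gm44985, overlaps Plk1 on the other strand and had at most 10 counts.

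The cyclins and kinases that act beside Plk1 did not pass the test. Ccna2, the cyclin of S phase and early mitosis, was at 79.9, 79.4 and 71.1 CPM in control and at 79.3, 77.2 and 72.4 with DB2313 (log2 fold change -0.01 ± 0.08, adjusted p = 0.966, edgeR). Cdk1, the mitotic kinase itself, was at 62.7, 55.0 and 60.7 CPM in control and at 68.3, 68.0 and 61.1 with DB2313 (0.15 ± 0.08, adjusted p = 0.331, edgeR). Both genes had overlapping groups. Aurka, the kinase of the spindle poles that activates Plk1, was at 31.8, 33.7 and 35.8 CPM in control and at 37.3, 38.7 and 41.0 with DB2313, above every control in each treated library (0.21 ± 0.09, adjusted p = 0.175, edgeR). Aurkb, the kinase of the chromosomal passenger complex, was likewise above in every library at 0.18 (adjusted p = 0.197, edgeR). The B cyclins lay on opposite sides of 0, with Ccnb1 at 0.18 (adjusted p = 0.254) and Ccnb2 at -0.10 (adjusted p = 0.497), both by edgeR, and Ccnb1 has 3 near-identical copies of at most 26 counts.

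The ratio of Plk1 to Aurka CPM was 1.5, 1.52 and 1.46 in control and 1.13, 0.888 and 0.918 with DB2313. The ratio of Plk1 to Cdk1 was 0.759, 0.929 and 0.863 in control and 0.620, 0.505 and 0.616 with DB2313. Both ratios were lower in every treated library. The pairs were chosen after their values were seen and are given with no test, and the ratios are not per length, so they can be read only across libraries.

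Of the 6 genes of the spindle checkpoint and the centromere, none passed the test, and 3 lay on each side of 0. Bub1b, a checkpoint kinase-like protein, was at 66.3, 59.9 and 63.6 CPM in control and at 63.6, 58.6 and 74.7 with DB2313 (0.05 ± 0.09, adjusted p = 0.804, edgeR). Cdc20, the activator of the anaphase promoting complex that the checkpoint restrains, was at 58.7, 56.5 and 64.2 CPM in control and at 61.8, 54.5 and 52.9 with DB2313 (-0.08 ± 0.09, adjusted p = 0.632, edgeR). The groups overlapped in both. Log2 fold changes were 0.11 for Bub1, -0.03 for Cenpf and -0.18 for Cenpe, the kinesin of the kinetochore. Birc5, or survivin, of the passenger complex was at 0.20 with all 3 treated libraries above the controls, but its highest library was DB2313 replicate 1 at 70.0 CPM, and without that library the value was 0.10.

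Kif20a had the largest change of all members. It encodes the kinesin also called MKLP2, which brings the passenger complex and Plk1 to the central spindle for cytokinesis, and lies on chromosome 18. It was at 35.3, 37.0 and 29.7 CPM in the control libraries and at 18.3, 17.2 and 23.4 with DB2313. The groups did not overlap, and the log2 fold change was -0.80 ± 0.13 (SE, n = 3 per group, adjusted p = 8.86e-04, edgeR). It passed the test under all 15 alternatives, between -0.94 and -0.71 on the log2 scale. Kif20a shares 2315 bp with Cdc23 on the other strand, with a stretch of 979 bp found in transcripts of both, so part of its reads is uncertain if strand was not used. Cdc23, a subunit of the anaphase promoting complex, had a log2 fold change of 0.23 (adjusted p = 0.151, edgeR), and the CPM ratio of Kif20a to Cdc23 was 1.29, 1.37 and 1.06 in control and 0.554, 0.574 and 0.688 with DB2313.

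Kif23, the kinesin of the centralspindlin complex that works at the same midzone, lay on the other side. It was at 36.5, 36.6 and 31.99 CPM in control and at 37.9, 43.8 and 45.7 with DB2313, above in every treated library, with a log2 fold change of 0.28 ± 0.10 (adjusted p = 0.0908, edgeR). It passed the test without DB2313 replicate 1 (adjusted p = 0.0202, edgeR). The CPM ratio of Kif20a to Kif23 was 0.968, 1.01 and 0.927 in control and 0.482, 0.392 and 0.512 with DB2313. The pair was chosen after its values were seen, so no test is given.

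Tpx2, which activates Aurka and builds spindle microtubules, was higher with DB2313. It lies at chr2:152847964-152895321 on the plus strand. It was at 72.1, 76.5 and 76.6 CPM in control and at 89.0, 90.4 and 87.0 with DB2313, with no overlap, and its log2 fold change was 0.24 ± 0.07 (SE, n = 3 per group, adjusted p = 0.0478, edgeR). The call stood close to the threshold. The adjusted p was 0.189, 0.121 and 0.122 without control replicate 1, 2 and 3 and 0.201 without DB2313 replicate 2. It was 0.067 with no filter on low counts and 0.123 in the fit blocked on replicate number.

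The remaining spindle and chromosome genes did not pass the test. Top2a, which untangles sister chromatids, had the highest CPM of all members, at 266, 273 and 259 in control and 277, 299 and 326 with DB2313. All 3 treated libraries were above the controls (0.18 ± 0.07, adjusted p = 0.154, edgeR). Mki67, the proliferation marker that coats mitotic chromosomes, was at 270, 249 and 234 CPM in control and at 209, 243 and 272 with DB2313, so the DB2313 libraries spanned the whole control range (-0.06 ± 0.09, adjusted p = 0.766, edgeR). Kif11, the kinesin that separates the spindle poles, was at 0.07 and Nusap1, which bundles spindle microtubules, at 0.09 on the log2 scale.

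**Figure D2:**
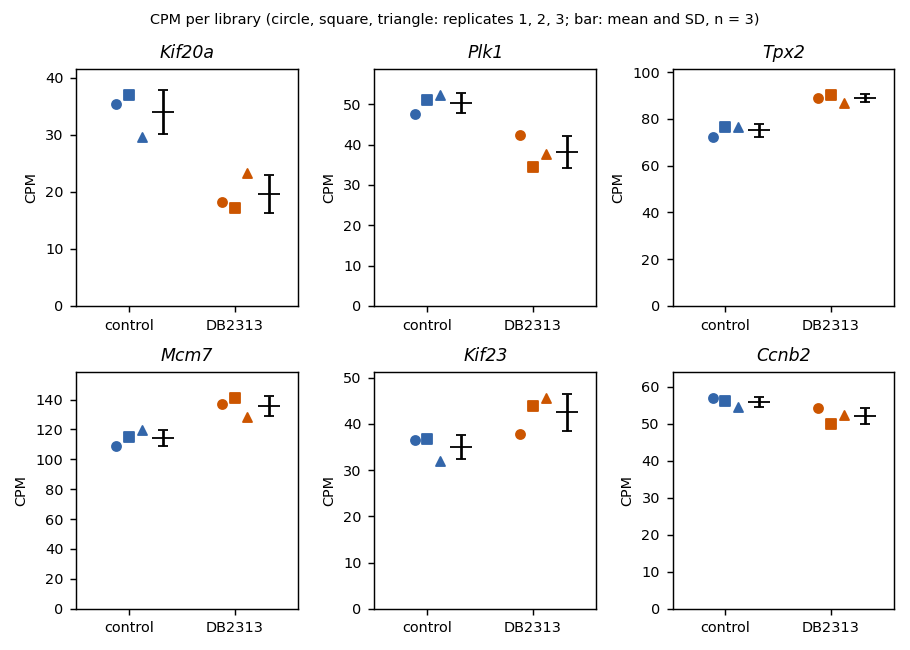
CPM in each library (y axis, from 0) for Kif20a, Plk1, Tpx2, Mcm7, Kif23 and Ccnb2, with the 3 control libraries in blue, the 3 DB2313 libraries in orange and the mean and SD of each group as black bars. The groups do not overlap in any of the 6 panels, whereas they overlap for 24 of all 38 members. Kif23 and Ccnb2 did not pass the test. Kif20a has the largest log2 fold change of the 6, at 29.7 to 37.0 against 17.2 to 23.4 CPM.

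The replication genes and the mitotic genes were also set against the control mean in each library. Of the 16 replication genes, 16, 13 and 16 were above it in DB2313 replicates 1 to 3, with median log2 ratios of 0.144, 0.105 and 0.139, against 5, 9 and 11 in the control libraries. Of the 20 mitotic genes, 13 were above it in each DB2313 library, with medians of 0.05, 0.07 and 0.11, against 15, 10 and 9 in the control libraries. The control libraries define the mean they are set against, so these counts describe the libraries and test nothing. The coefficient of variation between the libraries of a group had a median of 5.11% over the members in control (0.940 to 21.99%) and 6.46% with DB2313 (0.444 to 16.8%).

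**Figure D3:**
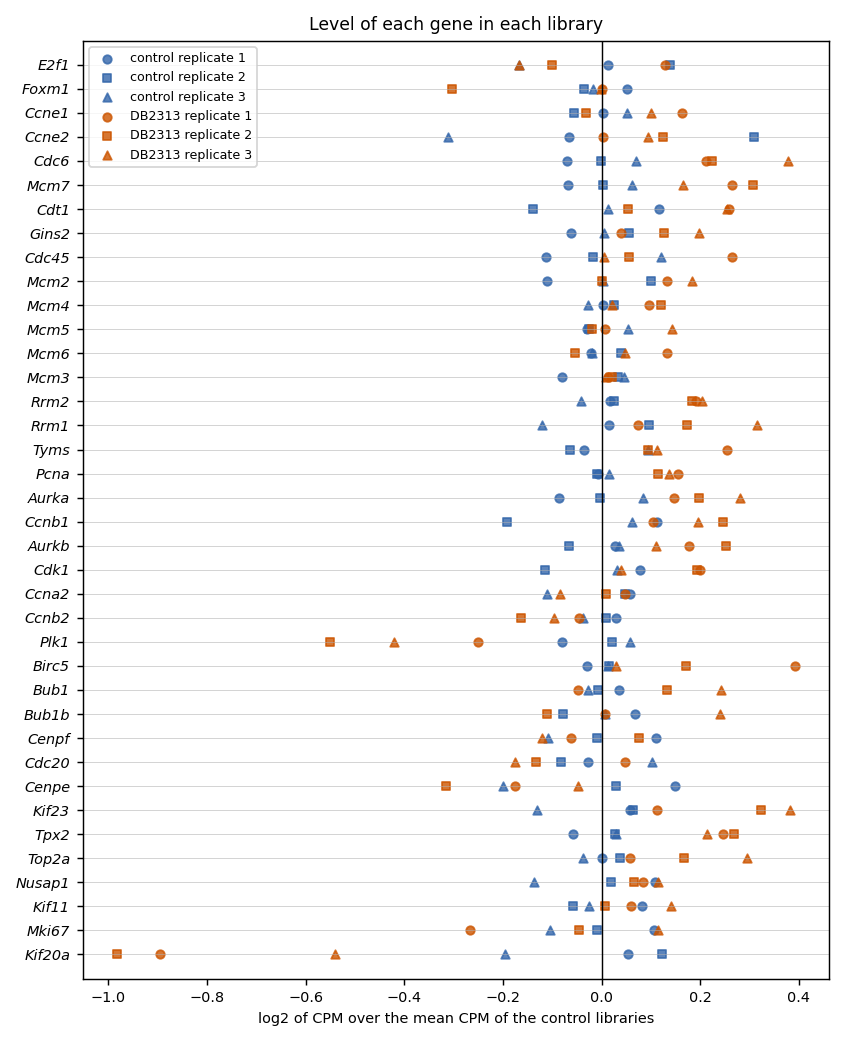
Log2 of the CPM of each member in each library over its mean in the control libraries (x axis), with control in blue and DB2313 in orange and a symbol for each replicate. The replication genes sit slightly to the right of 0 in the treated libraries, DB2313 replicate 2 is farthest left for Kif20a and Plk1, and Mki67 is spread from below to above the controls.

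To compare members with each other, counts were also scaled per kilobase of gene length. On this scale (RPKM, scaled for length and library size) the members spanned 2.47 to 71.8 in the control libraries, with a median of 13.8 in control and 15.2 with DB2313. Pcna was highest, at 71.8 ± 0.67 in control and 78.8 ± 1.06 with DB2313 (SD, n = 3), and Cenpf was lowest, at 2.47 ± 0.19 and 2.41 ± 0.17. The MCM subunits ranged from 12.8 for Mcm2 to 39.0 for Mcm3 in control. Plk1 was at 22.9 ± 1.13 in control and 17.3 ± 1.82 with DB2313, and Kif20a at 8.95 ± 1.01 and 5.17 ± 0.87. The length column covers all exons of a gene, so levels of genes that use only some of them are understated.

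**Figure D4:**
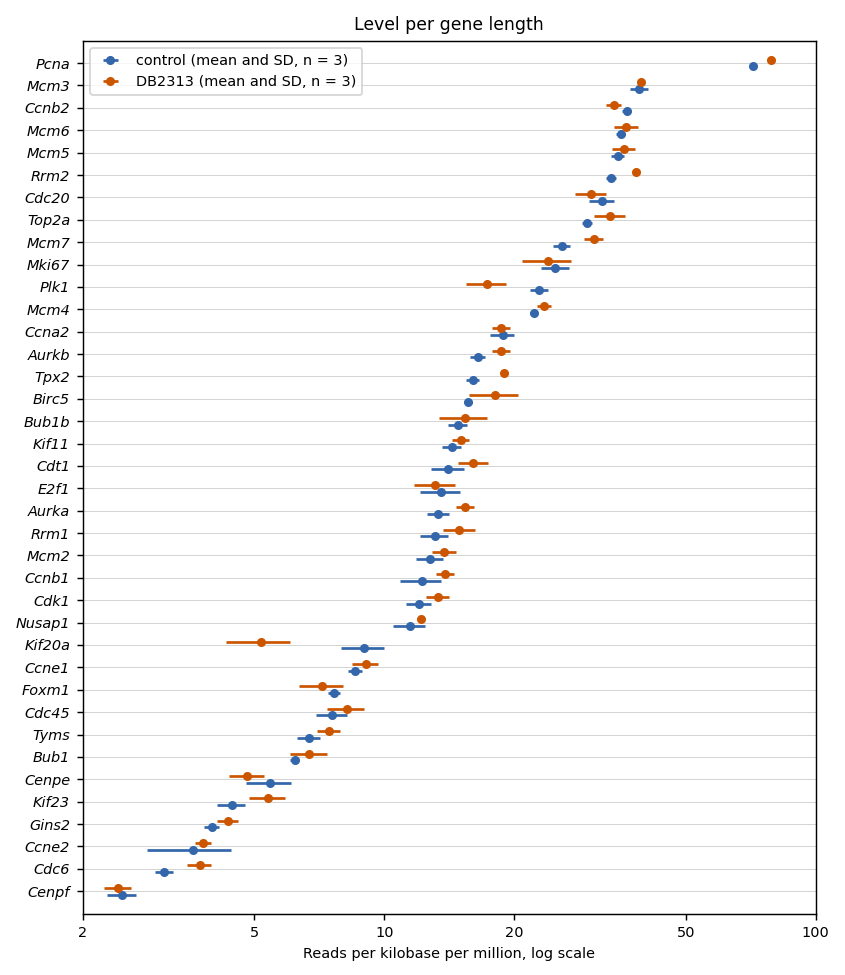
Level of each member in RPKM (x axis, log scale), ordered by the control mean, as mean and SD of 3 libraries for control (blue) and DB2313 (orange). Pcna stands above all others, and Kif20a and Plk1 are the members whose DB2313 level falls clearly to the left of the control level.

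Another 216 cell cycle genes, listed by role, were all tested as well. Of these, 18 (8.33%) were higher and 5 (2.31%) were lower, against 4.66% and 5.94% of all tested genes, and the median log2 fold change was 0.08, with 65.3% positive. Thus the list as a whole lay on the same side of 0 as the members, and its calls were mostly upward. Without DB2313 replicate 2 the counts were 8 and 4, without control replicate 1, 2 or 3 they were 9 and 3 each time, and without DB2313 replicate 3 they were 31 and 11. In the fit blocked on replicate number there were 11 higher and 4 lower. Over all tested genes, 661 were higher and 842 lower in the main fit. They were 328 and 411 without DB2313 replicate 2, and 1097 and 1311 without DB2313 replicate 3. Without control replicates 1 to 3 they were 361 and 485, 360 and 436, and 383 and 471, and in the blocked fit 502 and 629. The calls fell on the G1 regulators (5 of 36 higher), origin firing (3 of 23 higher and 1 lower), nucleotide synthesis (2 of 15 higher), the polymerases (1 of 28 higher), the kinetochore (2 of 32 higher), the spindle (3 of 42 higher), the anaphase promoting complex and separation (1 of 20 lower) and the antiproliferative genes (2 of 20 higher and 3 lower).

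Upstream of the members, Ccnd1, the D cyclin that opens G1, had the smallest p. It was at 25.7, 27.8 and 24.0 CPM in control and at 37.1, 44.5 and 44.8 with DB2313, a log2 fold change of 0.71 ± 0.10 (adjusted p = 4.40e-04, edgeR). It shares 818 bp of transcript with LTO1 on the other strand. LTO1 had up to 444 counts in a library, so part of the Ccnd1 reads is uncertain if strand was not used. Cdk6, the partner of Ccnd1, rose by 0.39. Ccnd2 was at -0.15 and Ccnd3 at 0.04, neither passing the test. Whether the D cyclins differed from each other was not tested.

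The kinase that fires the licensed origins was higher in both its subunits. Cdc7, the catalytic subunit, was at 14.02, 9.54 and 12.4 CPM in control and at 20.4, 18.7 and 18.3 with DB2313 (0.67 ± 0.14, adjusted p = 0.00665, edgeR). Dbf4, its activator, was at 34.4, 33.1 and 34.9 CPM in control and at 44.7, 45.5 and 47.3 with DB2313 (0.42 ± 0.08, adjusted p = 0.00432, edgeR). In both genes all treated libraries were above all controls, and the calls held under all 15 alternatives.

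Other genes higher with DB2313 were Pkmyt1, which inhibits Cdk1 (log2 fold change 0.64), Ska1, of the outer kinetochore (0.75), Max, the partner of Myc (0.38), Impdh2, of guanine nucleotide synthesis (0.42), and Tk2, the mitochondrial thymidine kinase (0.36). Impdh2 has a near-identical copy, Impdh2-ps, with up to 630 counts, and Pkmyt1 overlaps Paqr4 over 550 bp. Tk2 lost its call on leaving out control replicate 1, 2 or 3 or DB2313 replicate 2, with an adjusted p (edgeR) of 0.0579, 0.0540, 0.0836 and 0.0703. Lower with DB2313 were 3 genes that restrain growth, Ccng2 (-0.48), Tob1 (-0.50) and Gadd45b (-0.45). From the same list of antiproliferative genes, Btg3 (0.81, adjusted p = 0.0161) and Ccng1 (0.28, adjusted p = 0.0152) were higher by edgeR, and both were named after their values were seen. The adjusted p-values of the other 8 genes were between 0.00169 and 0.0150 (edgeR).

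The Rb and E2F families did not pass the test. Log2 fold changes were -0.19 for Rb1, 0.20 for Rbl1 and 0.06 for Rbl2. Without DB2313 replicate 3, Rb1 was called lower (-0.34, adjusted p = 0.00913, edgeR), and without DB2313 replicate 1, Rbl1 was called higher (0.31, adjusted p = 0.0257, edgeR). For the E2F genes they were -0.02 for E2f2, 0.07 for E2f3, 0.15 for E2f4, -0.07 for E2f5, -0.11 for E2f6, 0.23 for E2f7 and -0.14 for E2f8. The inhibitors of the cyclin-dependent kinases did not pass it either. Cdkn1a was at 0.17, Cdkn1b at 0.22, Cdkn1c at 0.18, Cdkn2a at -0.18, Cdkn2b at -0.03, Cdkn2c at -0.28, Cdkn2d at 0.17 and Cdkn3 at 0.25, and the lowest adjusted p (edgeR) among them was 0.0803, that of Cdkn1b. Cdkn1a passed the test without DB2313 replicate 3 (0.22, adjusted p = 0.0175, edgeR) and Cdkn2c without DB2313 replicate 1 (-0.35, adjusted p = 0.0281, edgeR). With the gene length offset, Cdkn1b (adjusted p = 0.0299, edgeR) and Cdkn2c (adjusted p = 0.0360, edgeR) passed it.

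**Figure D5:**
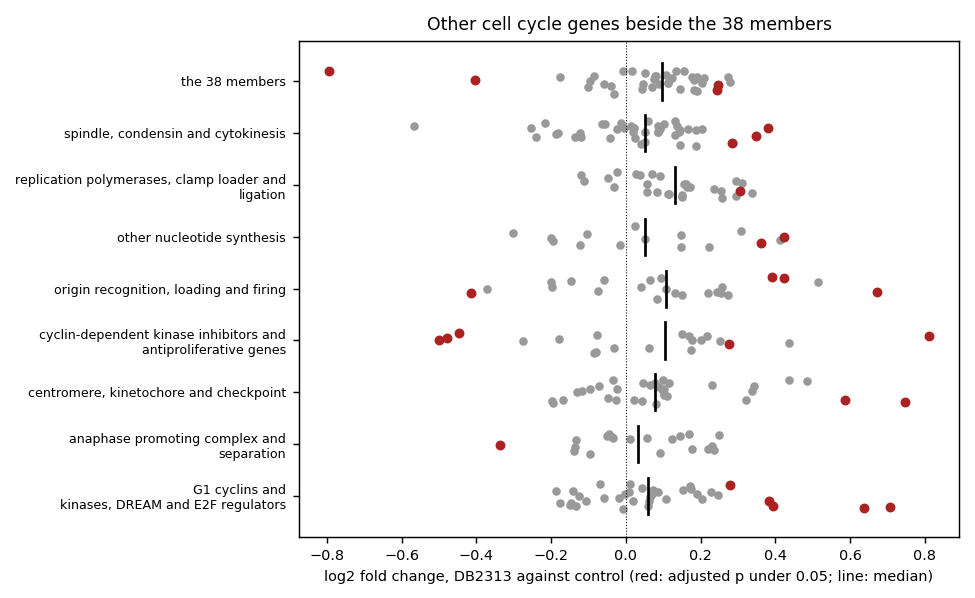
Log2 fold change (x axis, DB2313 against control) of the 38 members and of 216 other cell cycle genes in 8 lists, 1 point per gene, red where the adjusted p was under 0.05, with the median of each list as a black line. The medians of all 9 rows lie between 0.03 and 0.13, and the largest called changes of the members are to the left while most of those of the other lists are to the right.

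Markers of cell types were read beside these results, since in bulk samples fewer cells of a type and less RNA per cell cannot be told apart. The summed CPM of 12 dendritic cell markers was 11917 to 12163 in control and 10184 to 11968 with DB2313, with Itgax, Irf4 and Batf3 called lower, and that of 12 macrophage and monocyte markers was 10732 to 12102 and 9777 to 10704 (1 higher, 4 lower). Cd74 alone had a mean of 6557 CPM in control and 5999 with DB2313, so the dendritic cell sum rests largely on it. Lyz2 had means of 8751 and 7887 CPM, so the macrophage and monocyte sum rests largely on Lyz2. The sum of 12 markers of myeloid progenitors was 651 to 730 in control and 735 to 876 with DB2313. In this list Elane, Gfi1, Cebpe and Ctsg were called higher and Sox4 lower. Mpo, Ctsg and Prtn3 had the highest mean CPM of the list in both groups, so the sum rests largely on them. Mpo, Prtn3, Ms4a3, Hlf and Myb did not pass the test, with log2 fold changes of 0.30, 0.29, 0.37, 0.43 and 0.23. Neither did Cd34 (-0.11) or Kit (0.06). Whether dividing progenitors were more frequent was not tested. The sum of 10 neutrophil markers was 4990 to 5496 and 5330 to 6694 (3 higher), and that of 10 mast cell and basophil markers was 2527 to 2732 and 2584 to 3094 (2 higher). Of the dendritic cell markers, 11 of 12 exceeded 1 CPM in control, and Cd209a lay between 0 and 0.201 CPM in all 6 libraries. Markers of other myeloid cells were thus read beside those of the labelled type in both groups. Of the other lists, T and NK cells summed to 168 to 202 and 169 to 253, B cells to 34 to 39 and 40 to 47, erythroid cells to 317 to 357 and 310 to 347 (1 lower), and fibroblasts and endothelium to 52 to 57 and 54 to 56, with Col3a1 and Dcn at 0. The part of these shifts in the levels of the members was not tested.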

How the data were processed

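RNA-seq was analysed in 6 libraries, 3 control and 3 DB2313. The table deposited by the authors holds whole-number read counts that were not normalised, and a gene length in bp. The submitters' processing notes name CASAVA 1.8, HISAT2 2.0.5 and featureCounts 1.5.0-p3, whereas the methods of the study name LifeScope. The genome build and the use of strand are not given in the sources used here. GENCODE M21 shared 54409 identifiers with the table, 98.33% of them (37 of the 38 members) at equal coordinates, so positions are given as GRCm38. Columns named BMDC, commonly short for bone marrow-derived dendritic cells, were read as control and those named by Spi1 as DB2313, matched by number. Every direction of change rests on that reading. No pair of libraries held identical counts.

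Counts were tested with edgeR 4.0.16 (R 4.3.3, quasi-likelihood, TMM, filterByExpr, group as the only term, two-sided, Benjamini-Hochberg adjustment over 14174 genes), after the code was tested on simulated data. CPM used TMM-scaled library sizes. DESeq2 1.42.0 and limma 3.58.1 were alternatives, with other scalings and filters, a gene length offset (lowess, span of 0.3), the replicate block and the omission of each library. Copies were searched with blastn 2.17.0 at a minimum of 95% identity and 500 bp. Same-numbered libraries had correlations of deviations of 0.0035, -0.024 and -0.12. With 3 libraries per group these cannot show whether the replicate numbers pair the samples, so the replicate block was kept as an alternative. The members, the other lists and the tests were chosen with earlier results of these data known. All members are named, with the values of every library for those called and for the 2 with the highest mean CPM in each role. Of the other cell cycle genes, at most 12 called and non-overlapping genes by smallest p are named, besides the D cyclins and the Rb, E2F and inhibitor families. Cdc6, Rrm2, Aurka, Kif23, Cdc23 and the ratios were given in more detail after their values were seen. Reads had no molecular identifiers.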

Additional observations from a re-analysis of the deposited data

How the results depend on the processing

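The number of members higher was 2 and the number lower was 2. With no filter on low counts 1 was higher, with the gene length offset 5, with the replicate block 0, and with the offset and the replicate block 5. Over all tested genes 661 were higher in the main fit, and 835, 843, 502 and 676 in these settings, in the same order. The fit with no filter tested 27833 genes. When each library was left out in turn, 0 to 5 members were higher and 1 to 2 lower. Over all tested genes these omissions gave 328 to 1097 higher and 411 to 1311 lower. For the other cell cycle genes, 18 were higher and 5 lower in the main fit. With all libraries kept, the number higher was lowest with the replicate block, at 11, and highest with the gene length offset, at 27. Over all tested genes 502 and 843 were higher in these 2 fits. The omission of single libraries gave 8 to 31 of the other cell cycle genes higher and 3 to 11 lower. The median log2 fold change of the members stayed positive, between 0.072 and 0.122, in all 15 alternatives. Kif20a was called in 15 of 15, Plk1 in 12, Mcm7 in 10 and Tpx2 in 9. The cause of the lost and gained calls was not tested.

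The fold change reversed at least once for 10 of 38 members. Ccna2 was 0.014 with library totals and 0.00078 with no filter, and Cenpf and Mki67 were 0.085 and 0.0068 with the gene length offset and 0.082 and 0.0070 with the offset and the replicate block. E2f2 was 0.0056 with library totals. Without single libraries the values ranged for Bub1b from -0.051 to 0.128, Ccna2 from -0.060 to 0.028, Ccne2 from -0.057 to 0.264, Cenpf from -0.090 to 0.028, E2f1 from -0.132 to 0.039, Foxm1 from -0.146 to 0.00065, Mcm3 from -0.023 to 0.040, Mcm5 from -0.0049 to 0.078, Mcm6 from -0.0026 to 0.091 and Mki67 from -0.150 to 0.037. Outside the members they ranged for Ccnd3 from -0.025 to 0.120, Cdkn1c from -0.047 to 0.527, E2f2 from -0.076 to 0.023, E2f3 from -0.025 to 0.166, E2f5 from -0.198 to 0.038 and Rbl2 from -0.0034 to 0.129. With 3 libraries per group, standard errors of 0.065 to 0.156 limit what can be told from 0.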
